A study of Rattus norvegicus with 18 samples.

Results

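The genes described here are 35 symbols of blood vessel endothelium and of the factors that act on it in rat heart, chosen by name. Of the 35 symbols, 34 were found among 32883 genes, and Pecam1 was not analysed here. They were read in 5 role groups, with 11 pan-endothelial, 7 capillary and venous, 6 arterial, 3 flow-responsive and 7 ligand genes. Cldn5, a tight junction gene of capillaries, was listed at 0 counts in all 18 libraries, and its row lies wholly inside Cdc45 on the opposite strand. Robo4, an endothelial guidance receptor, never exceeded 34 counts, so 32 genes passed the filter on low counts and were tested in each comparison.

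RNA was sequenced from superior and inferior sinoatrial node (sSAN and iSAN), right atrium (RA), left atrium (LA) and left ventricle (LV) of healthy male Sprague Dawley rats, with no treatment or transgene in any group. The sSAN, iSAN, RA and LA had 4 libraries each, from rats 1 and 2 at 59 days and rats 3 and 4 at 70 days, and the LV had 2 libraries, from rats 3 and 4 at 70 days. Rat numbers follow the shared ending of the sample titles, and the labels do not otherwise tie a library to an animal. Library totals ran from 17334954 to 24252103 counts. Levels are CPM (counts relative to the library total, scaled by the trimmed mean of M-values), listed in rat order, a value after ± beside a log2 fold change is its standard error, and "called" means an adjusted p below 0.05 in edgeR's quasi-likelihood test with Benjamini-Hochberg adjustment over all genes tested.

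Every vessel in the heart is lined by endothelium, and the capillaries of working muscle hold most of it. Endothelial cells sense VEGF through the receptors Kdr and Flt1, and angiopoietins through Tek. Arterial cells carry Notch signalling and SoxF transcription factors, venous cells carry Ephb4 and Nr2f2, and shear from flowing blood induces Klf2, Klf4 and the anticoagulant Thbd. The endocardium that lines the chambers shares several of these genes, among them Eng, Emcn and Vwf. These are bulk tissue pieces, so fewer cells of a type and less RNA per cell cannot be told apart.

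The labels of the regions were checked against other genes. The ventricular light chain Myl2 was at 2060 and 2980 CPM in the LV and at or below 10.4 CPM in all other libraries, and the atrial light chain Myl7 was at 1.71 and 1.48 CPM in the LV. For 5 sinoatrial node genes (Hcn4, Isl1, Shox2, Tbx3 and Tbx18), the summed level was 108 to 238 CPM (sSAN), 123 to 160 CPM (iSAN) and 25.7 to 52.5 CPM elsewhere. This list was added after seeing the data, and not every gene on it followed the labels. Against the RA, 4 of the 5 were called higher in the sSAN, and 1 leaned the other way (log2 value -0.19). For the iSAN, 3 of the 4 tested were called higher, and the lowest log2 value was 0.04. Genes of other cell types moved with the regions too. The summed level of 10 fat cell genes was 1235 to 9262 CPM for sSAN, 359 to 4915 for iSAN and 101 to 287 for RA, LA and LV. A summed level of 5 red cell genes stood at 385 to 738 CPM for sSAN, 189 to 354 for iSAN, 42.2 to 126 for RA, 76.5 to 392.1 for LA and 11.99 to 38.8 for LV, and 7 endocardial genes (Bmp10 among them, also an atrial muscle gene) summed to 2003 to 2959 CPM in the RA against 183 to 998 elsewhere. Bmp10 alone was at 1544 to 2503 CPM in the RA, and without it the other 6 summed to 438 to 529.6 CPM for RA, 379 to 442 for LA, 222 to 365 for the nodes and 183 to 196 for LV. None of the genes in these 3 lists was at 0 in all libraries, and their part in the results below was not tested except where a value is given.

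Eng, a TGF-beta co-receptor, held the highest level per transcript length of the 33 genes with counts in the 4 atrial and nodal regions, at 148 ± 9.70 FPKM (fragments scaled to gene length and library total, mean ± SD, n = 4) in the RA. The VEGF family member Vegfb came next there, at 84.7 ± 5.52 FPKM in the RA, and was first in the LV at 107 ± 22.1 FPKM (n = 2). On the same FPKM scale Vwf ranked 3 in the iSAN at 58.6 ± 18.5 and 24 in the LV at 8.54 ± 0.499. Angpt1 ranked 4 in the LA at 62.4 ± 6.30 FPKM, 17 in the iSAN at 14.2 ± 4.13 and 19 in the sSAN at 12.4 ± 4.30. Most neighbours in the order did not separate, since the ranges of adjacent genes overlapped in 29 of 32 pairs for RA, 27 for LA, 31 for iSAN, 29 for sSAN and 18 for LV. Robo4 was last in every region. Cldn5 was given no rank, since its 0 lies inside an opposite-strand gene and whether counting used strand is not given in the sources used here.

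The broadest difference lay between the LV and the atria. Against the mean of RA and LA, 27 of the 32 genes were called, 23 higher and 4 lower, where 24.7% of 14534 genes were called higher and 24.5% lower (49.2% in either direction). The groups did not overlap for 24 of the 27, and the share of all genes without overlap was not counted. The median log2 fold change of the 32 genes was 0.74, against -0.03 for all genes tested. All 6 arterial genes were called higher, as were 8 of 10 pan-endothelial genes (Eng was lower), 3 of 6 capillary and venous genes (Vwf was lower), 2 of 3 flow-responsive genes and 4 of 7 ligands (Angpt1 and Angpt2 were lower). Scaled to library totals alone, a choice made after seeing the data, the split became 13 higher and 6 lower (69.3% of all genes called), with the median of all genes at -0.57 and that of the 32 genes at 0.20, and scaled to the summed pan-endothelial genes it was 18 higher and 6 lower (54.9% of all genes called) with all genes at -0.35 and the 32 genes at 0.42. The summed level of the fat cell genes was lowest in the LV, where 3 of 5 tested were called lower and 1 (Pparg) higher, and all 8 macrophage genes were called lower there. The LV came from 70-day rats only, and against the atria of the 70-day rats alone 29 genes were called, 25 higher and 4 lower, against 41.8% of all genes.

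**Figure D1:**
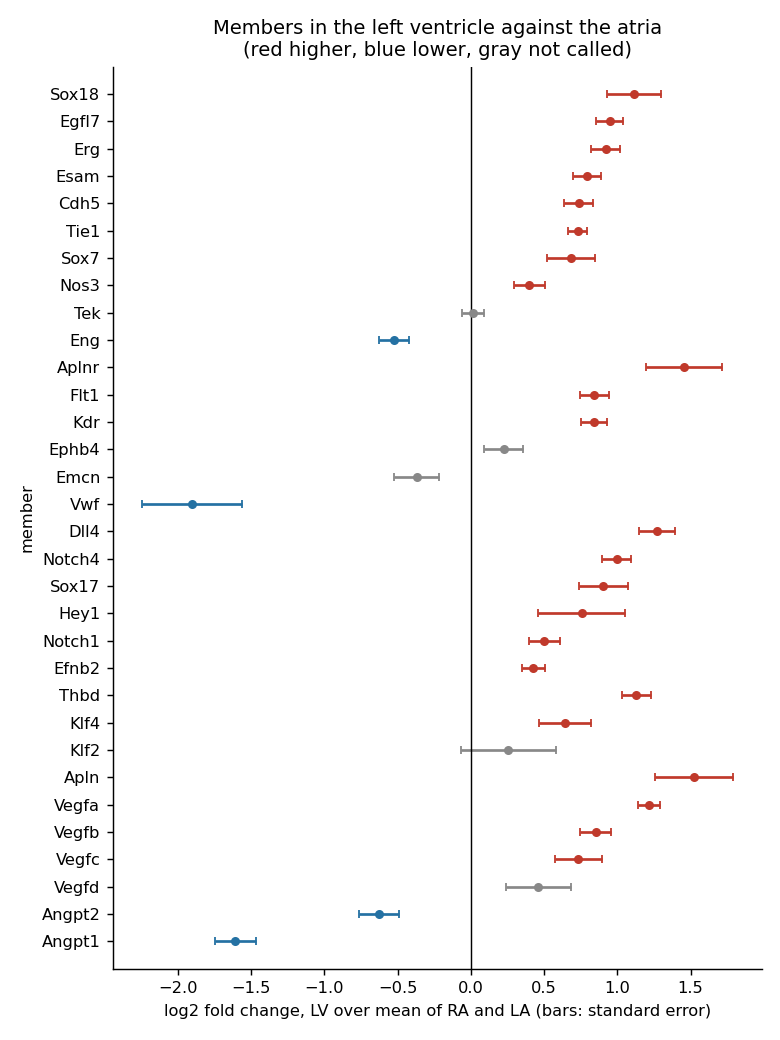
Log2 fold change of the LV over the mean of RA and LA for the 32 tested genes, grouped by role from top to bottom, with the standard error as bars. Of the 32 points, 23 are called higher (red), 4 are called lower (blue: Eng, Vwf, Angpt1 and Angpt2) and 5 are not called (gray).

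Among the nodes and atria the calls were fewer and ran both ways. In the sSAN over RA 7 of 32 genes were called, 4 higher and 3 lower, against a background of 13.8% higher and 8.48% lower (22.2% in all) of 14038 genes. In the iSAN over RA 8 were called, 4 in each direction, against 10.4% and 6.16% (16.6%) of 14066 genes. Over the LA the sSAN had 9 calls, 8 of them higher, against 11.8% higher and 8.41% lower (20.2%) of 14112 genes, and the iSAN had 10, with 6 higher and 4 lower, against 10.4% and 6.72% (17.1%) of 14201 genes. The LA over RA gave 7 calls, 2 higher and 5 lower, against 4.37% and 4.26% (8.64%) of 13904 genes. The RA and the LA each serve as reference for both nodes, so those comparisons share libraries. Within the 59-day rats alone 11 genes were called in the sSAN over RA (22.5% of all genes), 0 in the iSAN over RA (0.219%), 11 in the sSAN over LA (22.6%), 0 in the iSAN over LA (0.0908%) and 5 in the LA over RA (4.35%). For the 70-day rats by themselves 5, 6, 7, 9 and 6 genes passed, in that order, against 12.1%, 11.7%, 8.7%, 12.3% and 2.74% of all genes. Adipoq, a fat cell gene, stood at 38.7 and 657 CPM in the iSAN of the 59-day rats, and its part in these counts was not tested. Without rat 2, a choice made after seeing the data, the sSAN over RA gave 4 calls (12.4% of all genes). The same count of 4 came from leaving out sSAN replicate 1, RA replicate 2 or RA replicate 4, and the iSAN over LA gave 5 without iSAN replicate 4 and 6 without LA replicate 3 or LA replicate 4.

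Scaling moved the split of calls in several of these comparisons. With relative log expression factors the sSAN over RA gave 4 higher and 5 lower (22.1% of all genes called). Scaled to the pan-endothelial sum, the splits were 5 higher and 1 lower in the sSAN over RA (15.4% of all genes called), 8 and 3 in the iSAN over RA (36.1%), 8 and 1 in the iSAN over LA (15.1%), and 7 and 4 in the LA over RA (12.6%). With library totals alone they were 3 and 6 in the sSAN over RA (23.3%), 3 and 5 in the iSAN over RA (13.7%), and 1 and 5 in the LA over RA (8.35%). That sum is itself 17.9 to 43.5% Eng, which differed between regions. Library totals alone moved the median of all genes to -0.17 in the sSAN over RA, -0.16 in the sSAN over LA and -0.21 in the sSAN over iSAN. The pan-endothelial sum moved it to 0.23 in the sSAN over RA, 0.32 in the iSAN over RA, 0.17 in the LA over RA, 0.16 in the iSAN over LA and -0.12 in the sSAN over iSAN.

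With the unlogged CPM of Adipoq as a covariate, a choice made after seeing the data, 18 of the 34 calls between nodes and atria were lost. Besides those given with their genes, these were Angpt2, Aplnr, Cdh5, Emcn, Kdr and Vegfc in the iSAN over LA, Notch1 and Vegfc in the iSAN over RA, and Esam in the sSAN over LA (adjusted p 0.091 to 0.34). The loss was not particular to these genes, since the share of all genes called fell in every node over atrium comparison. It went from 16.6% to 4.04% in the iSAN over RA and from 20.2% to 11.6% in the sSAN over LA. Unlogged Adipoq also correlated with region, at 0.73 to 0.75.

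No gene was called between the nodes. None of the 32 was called in the sSAN over iSAN, where 0.00699% of 14301 genes were called, and 4 had an unadjusted p under 0.05. DESeq2 called none as well. The smallest adjusted p was 0.37, and the log2 fold changes ran from -0.57 to 0.58 with a median of 0.11. The groups were apart for 1 gene, and the share over all genes was not counted.

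**Figure D2:**
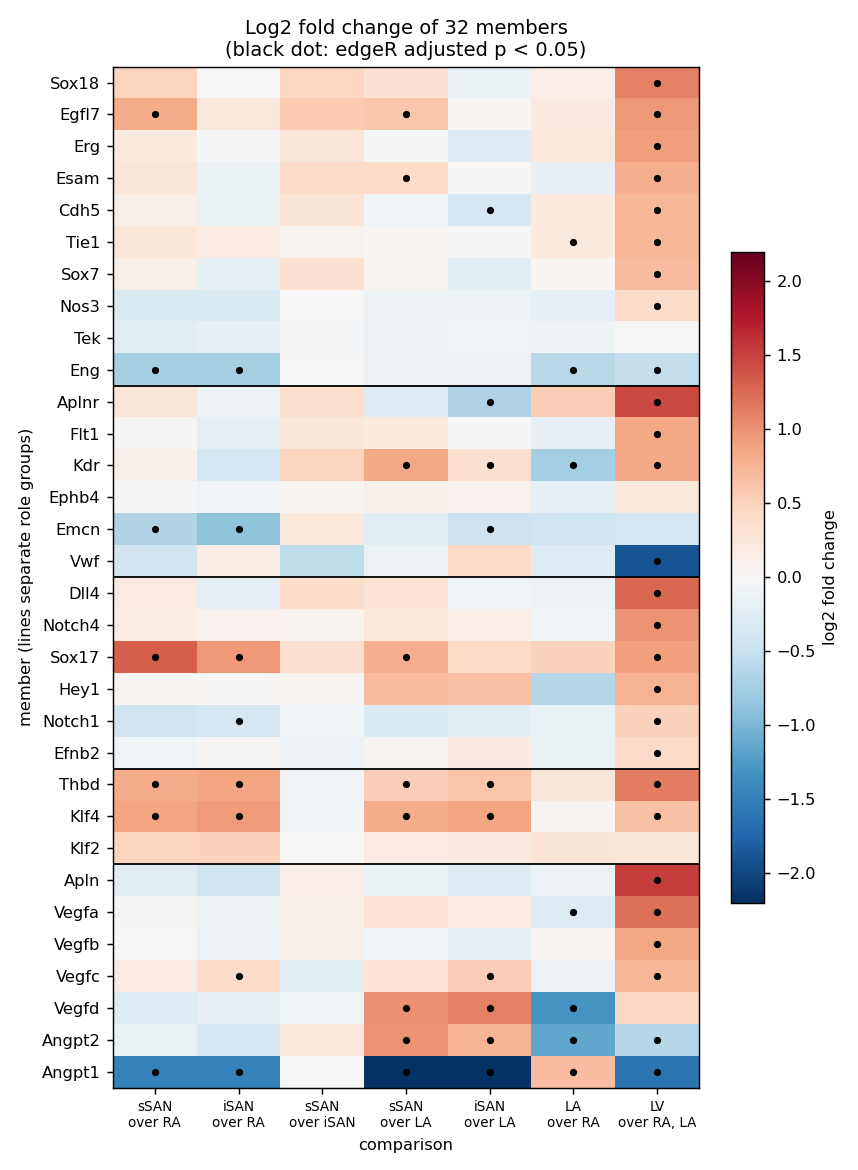
Log2 fold change (color) of the 32 tested genes in 7 comparisons, with rows ordered by role (pan-endothelial, capillary and venous, arterial, flow-responsive, ligand) and black dots for genes called by edgeR. Called genes number 7, 8, 0, 9, 10, 7 and 27 from left to right.

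Most pan-endothelial genes were higher in the LV, and few were called between nodes and atria. Cdh5, the adherens junction cadherin of endothelium, was at 163, 223, 234 and 138 CPM for sSAN, 162, 169, 155 and 133 for iSAN, 161, 173, 206 and 161 for RA, 189, 236, 194 and 197 for LA and 339 and 299 for LV. Both LV values lay above all 16 others, and the other regions overlapped. The log2 fold change of the LV over the atria was 0.74 ± 0.10 (adjusted p = 3.9e-05), and that of the iSAN over LA was -0.37 ± 0.10 (adjusted p = 0.028). The latter was lost without any single one of LA libraries 2 and 4 and iSAN libraries 3 and 4 (adjusted p 0.056 to 0.068). Scaled to library totals alone, Cdh5 in the LV had a log2 fold change of 0.20 (adjusted p = 0.12).

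Tie1, an endothelial receptor kinase that pairs with Tek, stood at 92.5, 124, 141 and 95.7 CPM for sSAN, 111, 105, 118 and 93.9 for iSAN, 93.9, 93.8, 99.2 and 93.7 for RA, 111, 120.4, 110.5 and 105 for LA and 181 and 165 for LV. The 4 RA values lay close together and below every LA value, and the LV was highest in CPM. In FPKM, Tie1 did not set the LV apart, at 40.3 to 47.0 there against 36.5 to 47.6 in the iSAN. It was called in the LV (0.73 ± 0.06, adjusted p = 7.6e-07) and in the LA over RA (0.22 ± 0.06, adjusted p = 0.033). The LA call was lost without any single one of LA libraries 1 and 2 and RA libraries 1, 2 and 4 (adjusted p 0.069 to 0.097). Egfl7, a secreted endothelial matrix protein, was at 49.9, 59.7, 54.97 and 43.1 CPM for sSAN, 28.3, 45.3, 39.04 and 26.5 for iSAN, 29.1, 30.95, 30.5 and 29.04 for RA, 28.8, 38.5, 37.8 and 32.7 for LA and 64.5 and 60.95 for LV. All sSAN values exceeded all RA values and all LA values, and the iSAN straddled both atria. In FPKM the LV was not apart from the sSAN, with Egfl7 at 29.4 to 33.0 and 31.1 to 35.1. Egfl7 was higher in the sSAN over RA (0.81 ± 0.11, adjusted p = 0.0018), the sSAN over LA (0.61 ± 0.13, adjusted p = 0.012) and the LV (0.95 ± 0.09, adjusted p = 1.9e-06), while the sSAN over iSAN gave 0.58 ± 0.18 (adjusted p = 0.44). Within ages its sSAN over RA value was 0.89 in the 59-day and 0.71 in the 70-day rats. With the Adipoq covariate the sSAN over LA value of Egfl7 was 0.45 (adjusted p = 0.11), no longer called. The microRNA gene Mir126a overlaps Egfl7 on the other strand with a mean of 8.4 counts.

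Erg, an ETS transcription factor that keeps endothelial identity, was at 21.02, 26.9, 28.2 and 17.7 CPM for sSAN, 20.9, 18.1, 21.3 and 17.5 for iSAN, 19.9, 20.3, 22.4 and 18.9 for RA, 25.7, 27.1, 22.3 and 20.9 for LA and 41.6 and 43.4 for LV. Only the LV stood apart, with 0.92 ± 0.10 (adjusted p = 4.4e-06). Esam, a junctional adhesion molecule, had 46.9, 55.9, 55.5 and 44.5 CPM for sSAN, 34.7, 38.8, 41.2 and 37.4 for iSAN, 42.4, 44.4, 42.3 and 41.4 for RA, 33.001, 46.2, 36.4 and 36.2 for LA and 71.9 and 69.2 for LV. It was highest in the LV (0.79 ± 0.10, adjusted p = 1.5e-05). Esam was also called in the sSAN over LA (0.43 ± 0.13, adjusted p = 0.037), which was lost without any single one of LA libraries 1, 3 and 4 and sSAN libraries 1, 2 and 3 (adjusted p 0.063 to 0.11). The SoxF transcription factors Sox18 and Sox7 were also higher in the LV, at 1.11 (adjusted p = 6.6e-04) and 0.68 (adjusted p = 0.0046). The nitric oxide synthase gene Nos3 was higher there by 0.40 (adjusted p = 0.0072). Nos3 was lost without any single one of LV libraries 3 and 4 (adjusted p 0.051 to 0.059), Sox7 without LV replicate 3 (adjusted p = 0.095), and Nos3 turned to -0.14 with library totals alone. Nos3 overlaps Atg9b, which had a mean of 3.1 counts. With the rat as a block, Nos3 was also lower in the LA over RA (-0.21, adjusted p = 0.014) and in the iSAN over RA (-0.32, adjusted p = 0.025), and Sox18 was higher in the sSAN over RA (0.46, adjusted p = 0.045).

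Eng and Tek did not move with the rest. Eng was at 211, 153, 371 and 241 CPM for sSAN, 293, 192, 263 and 228 for iSAN, 429, 419.5, 393 and 396 for RA, 315, 280.3, 257 and 223 for LA and 243 and 223 for LV. Eng, like Aplnr, Vegfd and Apln below, was chosen for its library values after they were seen. All 4 RA values were above all other libraries. Eng was lower than in the RA in the LA (-0.62 ± 0.09, adjusted p = 0.0012), the iSAN (-0.73 ± 0.12, adjusted p = 0.0033) and the sSAN (-0.73 ± 0.23, adjusted p = 0.047), and lower in the LV than in the atria (-0.53 ± 0.10, adjusted p = 9.0e-04). The LV values overlapped those of the LA. The sSAN call was lost without any single one of RA libraries 1, 2, 3 and 4 and sSAN libraries 1 and 4 (adjusted p 0.082 to 0.10). With the Adipoq covariate Eng in the sSAN over RA was -0.17 (adjusted p = 0.67), and in the iSAN over RA -0.40 (adjusted p = 0.039). Tek, the angiopoietin receptor, was called in no comparison, with 0.02 ± 0.07 (log2, SE) in the LV and -0.23 ± 0.14 in the sSAN over RA.

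Of 12 other pan-endothelial genes, 9 were called higher and none lower in the LV, with a median log2 fold change of 0.40, and the transcription factor Ets1 had 1.07 (adjusted p = 3.0e-07). In the sSAN over RA 4 were higher and none lower, and in the iSAN over RA 3 were higher and 1 lower.

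**Figure D3:**
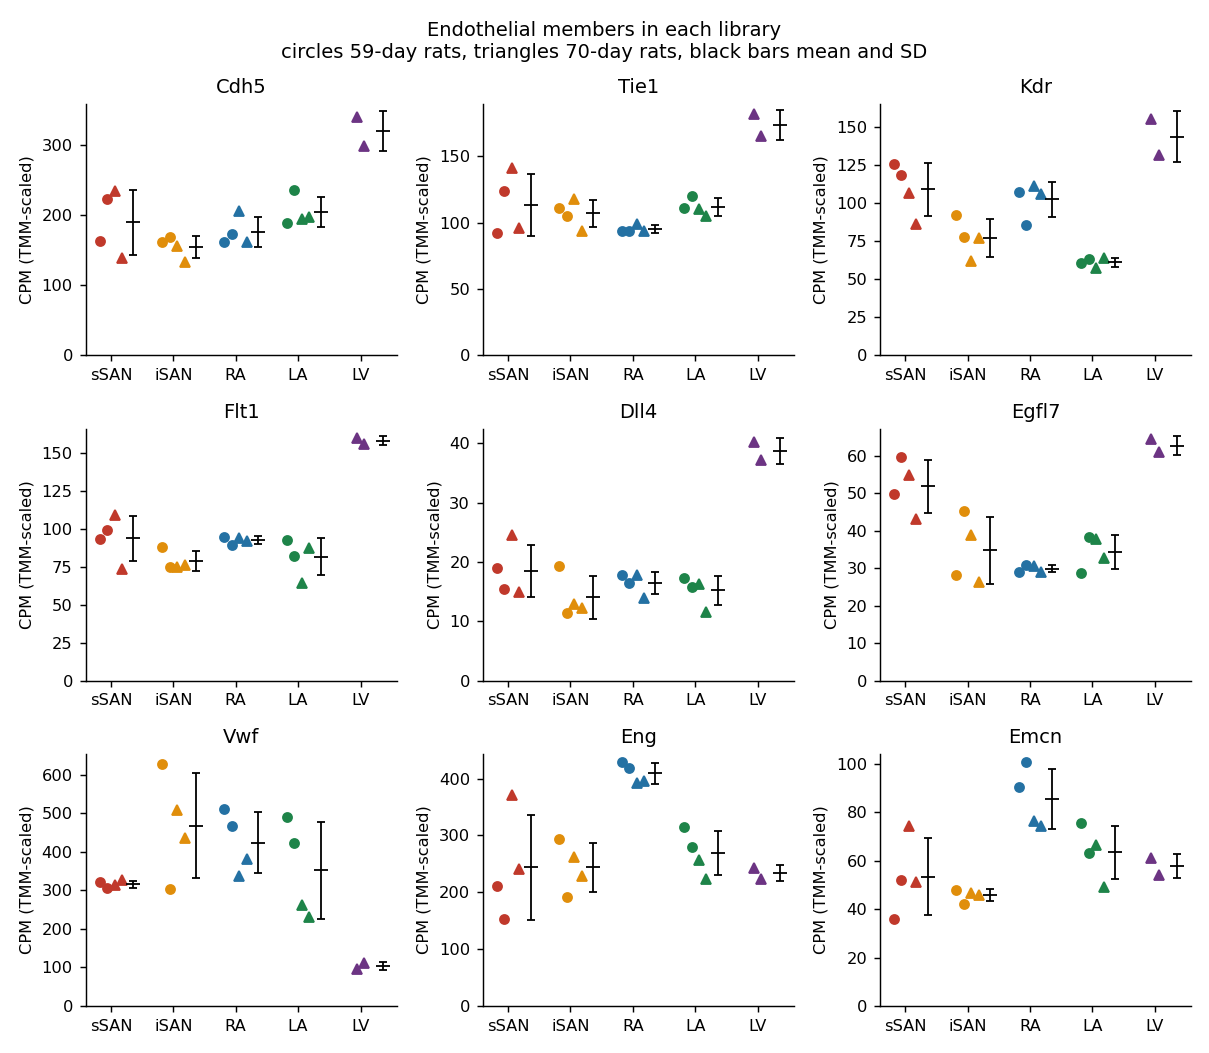
CPM of 9 endothelial genes in each library, with circles for 59-day and triangles for 70-day rats and black bars for the mean and SD (n = 4, LV n = 2). On this CPM scale Cdh5, Tie1, Kdr, Flt1, Dll4 and Egfl7 have both LV libraries above all others, whereas Vwf is lowest in the LV and Eng is highest in the RA.

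Kdr and Flt1, the VEGF receptors of capillary endothelium, were both called higher in the LV, but only Kdr separated the atria. Kdr, the main signalling receptor of VEGF-A, was at 126, 118, 107 and 86.2 CPM for sSAN, 92.4, 77.8, 62.1 and 77.4 for iSAN, 108, 85.7, 112 and 106 for RA, 61.1, 63.2, 57.3 and 63.99 for LA and 156 and 132 for LV. The 4 LA values lay below every RA and sSAN value but not below every iSAN value, and the LV was highest in CPM. In FPKM, scaled to the library total alone, the LV was not apart. There Kdr was 19.9 to 24.8 in the LV, 20.6 to 24.9 in the RA and 19.4 to 26.5 in the sSAN. Kdr was lower in the LA over RA (-0.75 ± 0.08, adjusted p = 1.1e-04), with -0.65 in the 59-day and -0.85 in the 70-day rats. It was higher in the sSAN over LA (0.85 ± 0.12, adjusted p = 0.0023), in the iSAN over LA (0.36 ± 0.11, adjusted p = 0.048) and in the LV (0.84 ± 0.09, adjusted p = 4.5e-06). The iSAN call was lost without any single one of LA libraries 1, 2, 3 and 4 and iSAN libraries 1, 2 and 4 (adjusted p 0.071 to 0.12), and with the rat as a block Kdr was lower in the iSAN over RA (-0.39, adjusted p = 0.047). Flt1, which binds VEGF-A and VEGF-B and limits signalling through Kdr, was at 93.2, 98.8, 109 and 73.4 CPM for sSAN, 88.1, 74.9, 74.7 and 76.1 for iSAN, 94.6, 89.01, 93.8 and 92.1 for RA, 92.4, 82.1, 64.2 and 87.5 for LA and 159.8 and 156 for LV. Only the LV stood apart (0.84 ± 0.10, adjusted p = 9.1e-06), and the LA over RA value was -0.19 ± 0.10 (adjusted p = 0.30). In FPKM Flt1 was 15.7 to 17.1 in the LV against 9.78 to 14.5 elsewhere.

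Emcn and Vwf, genes of venous, capillary and endocardial lining, had other patterns. Emcn, a surface sialomucin, was at 36.05, 52.2, 74.3 and 51.4 CPM for sSAN, 48.05, 42.2, 46.8 and 45.9 for iSAN, 90.4, 101, 76.5 and 74.3 for RA, 75.4, 63.2, 66.4 and 49.1 for LA and 61.3 and 54.2 for LV. Every iSAN value lay below every RA value, and the highest sSAN value was nearly equal to the lowest RA value. Emcn was lower in the iSAN over RA (-0.88 ± 0.10, adjusted p = 6.0e-04), where it was -1.07 in the 59-day and -0.67 in the 70-day rats, and in the iSAN over LA (-0.45 ± 0.12, adjusted p = 0.025). The sSAN over RA value was -0.66 ± 0.20 (adjusted p = 0.041). This last call was lost without any single one of RA libraries 1, 2, 3 and 4 and sSAN libraries 1, 2 and 4 (adjusted p 0.062 to 0.11), with the rat as a block (adjusted p = 0.058) and with the Adipoq covariate (-0.32, adjusted p = 0.49). The iSAN over LA call of Emcn was lost without any single one of LA libraries 1, 2 and 3 and iSAN libraries 2, 3 and 4 (adjusted p 0.050 to 0.064). With the block Emcn was also lower in the LA over RA (-0.44, adjusted p = 0.0042). Of 7 endocardial genes, 2 were called lower in the iSAN over RA and 3 in the sSAN over RA, none higher, with Npr3 at -1.23 (adjusted p = 2.0e-04) and -0.95 (adjusted p = 0.0019). In the iSAN over LA Npr3 was lower and Bmp10 higher. Emcn in the LV was -0.37 ± 0.15 (adjusted p = 0.068).

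Vwf, the platelet-binding protein stored in endothelial granules, was at 321, 305, 313 and 326 CPM for sSAN, 627, 302, 508 and 436 for iSAN, 511, 467, 336 and 380.3 for RA, 490.4, 422, 262 and 231 for LA and 96.997 and 112 for LV. The 2 LV values lay below all 16 others, and the nodal and atrial regions overlapped with a wide spread. Vwf was the most reduced of the 32 genes in the LV (-1.90 ± 0.34, adjusted p = 0.0019), and its level equalled 7.80 and 9.73% of the pan-endothelial sum (which leaves Vwf out) there against 26.8 to 73.0% elsewhere. Vwf was called in no other comparison. Its value for sSAN over LA was -0.53 in the 59-day and 0.37 in the 70-day rats, a difference of 0.90 between the ages (adjusted p = 0.029, edgeR interaction). The same interaction was called for 273 of 14112 genes.

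Genes of veins were split in the LV, with some lower like Vwf and others higher. Of 7 other venous genes, 4 were called lower there and 3 higher, the latter by up to 1.59. Among the lower ones were the plasmalemmal vesicle gene Plvap at -3.40 (adjusted p = 5.2e-05) and the adhesion molecule Vcam1 at -2.23 (adjusted p = 6.2e-09). The venous transcription factor Nr2f2 was also lower, at -1.83 (adjusted p = 1.8e-08). The median log2 fold change was -1.83. Vcam1 and Nr2f2 are also made by other cells of the heart. Endocardial genes were lower there too, 5 of 7, with Npr3 at -3.53 (adjusted p = 1.9e-08). By contrast all 8 other capillary genes were called higher in the LV (median 1.69), among them Lpl at 1.68 (adjusted p = 1.4e-08), Tcf15 at 1.78 (adjusted p = 1.2e-07) and Fabp4 at 1.70 (adjusted p = 1.8e-06). They were higher in the sSAN over RA as well, 8 of 8 (median 1.25), and 4 of 8 were in the iSAN over RA. Lpl, Fabp4 and Rbp7 are also fat cell genes, and the fat cell sum was highest in the sSAN and lowest in the LV.

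Aplnr, the apelin receptor, was at 32.7, 57.01, 93.9 and 47.2 CPM for sSAN, 34.3, 52.5, 50.9 and 38.2 for iSAN, 36.3, 39.8, 72.8 and 44.5 for RA, 50.6, 75.6, 83.4 and 73.3 for LA and 187 and 138 for LV. Both LV values were above the rest. It rose in the LV (1.46 ± 0.26, adjusted p = 0.0019) and was lower in the iSAN over LA (-0.66 ± 0.18, adjusted p = 0.035), which was lost without any single one of LA libraries 2, 3 and 4 and iSAN libraries 1 and 4 (adjusted p 0.055 to 0.090). With the block Aplnr was higher in the LA over RA (0.57, adjusted p = 0.043). Ephb4, the venous partner of Efnb2, was called in none of the 7 comparisons and had 0.22 ± 0.13 (adjusted p = 0.19) in the LV. With the block Ephb4 was called in the LV (0.38, adjusted p = 1.5e-04) and in the LA over RA (-0.17, adjusted p = 0.018).

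Promoter sequence is shown for 4 genes whose levels set the LV, the RA or the iSAN apart, Kdr and Tie1 (higher in the LV), Eng (lower in the LV) and Emcn (lower in the iSAN than in the RA). The 250 bases before each start are from RefSeq on GRCr8, 5′ to 3′ on the gene's strand, with capitals for matches on either strand to an ETS core (CCGGAA or CAGGAA), a SOX core (ACAATG or ACAAAG) or a KLF box (CCACACCC). Kdr is at chr14:32571813-32572062 (+), Tie1 at chr5:137304982-137305231 (-), Eng at chr3:36332029-36332278 (+) and Emcn at chr2:228564289-228564538 (+).
Kdr: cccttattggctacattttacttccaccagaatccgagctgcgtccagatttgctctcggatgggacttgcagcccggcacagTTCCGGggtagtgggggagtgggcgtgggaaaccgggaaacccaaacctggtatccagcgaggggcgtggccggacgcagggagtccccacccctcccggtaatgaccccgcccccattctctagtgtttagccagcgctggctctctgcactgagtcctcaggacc
Tie1: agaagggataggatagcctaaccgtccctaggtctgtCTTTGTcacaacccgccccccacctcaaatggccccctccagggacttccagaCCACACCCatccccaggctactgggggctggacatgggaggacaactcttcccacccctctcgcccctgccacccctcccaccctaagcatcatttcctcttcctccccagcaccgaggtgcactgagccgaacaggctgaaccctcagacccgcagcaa
Eng: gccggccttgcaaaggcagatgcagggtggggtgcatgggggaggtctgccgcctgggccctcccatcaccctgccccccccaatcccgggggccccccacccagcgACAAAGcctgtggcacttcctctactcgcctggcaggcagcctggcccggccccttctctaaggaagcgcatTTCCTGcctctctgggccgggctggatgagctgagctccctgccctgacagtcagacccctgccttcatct
Emcn: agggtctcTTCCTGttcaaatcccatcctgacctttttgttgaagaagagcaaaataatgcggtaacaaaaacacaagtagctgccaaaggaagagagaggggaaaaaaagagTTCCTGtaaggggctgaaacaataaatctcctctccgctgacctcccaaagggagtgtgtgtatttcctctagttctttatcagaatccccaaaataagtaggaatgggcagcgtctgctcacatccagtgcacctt
In these 4 windows Kdr held 1 ETS core, Tie1 1 SOX core and the 1 KLF box, Eng 1 ETS and 1 SOX core, and Emcn 2 ETS cores. Among the listed genes 20 matched, with 22 entries. An ETS core was in 9 of the 22 (40.9%) against 34.4% of all 33469 promoters of the same length, a SOX core in 6 (27.3%) against 25.3%, and the KLF box in 1 (4.55%) against 2.84%. Not matched were Angpt1, Angpt2, Aplnr, Cdh5, Dll4, Esam, Hey1, Klf2, Pecam1, Sox17, Sox18, Sox7, Tek, Thbd and Vwf. A match is a description of the letters and not of binding.

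Arterial genes were all higher in the LV, and Sox17 alone of the 6 was higher in both nodes than in the RA. Sox17 (ENSRNOG00000027357, chromosome 5, 14890408 to 14895907 in the authors' build), a SoxF transcription factor of arterial endothelium, was at 14.7, 15.3, 16.7 and 11.6 CPM for sSAN, 10.04, 14.7, 10.02 and 10.3 for iSAN, 5.26, 4.67, 7.64 and 6.06 for RA, 7.68, 8.70, 9.79 and 7.66 for LA and 11.8 and 15.03 for LV. The sSAN and iSAN values all lay above the RA values and above the LA values. Sox17 was higher in the sSAN over RA (1.31 ± 0.18, adjusted p = 0.0022), the iSAN over RA (0.95 ± 0.18, adjusted p = 0.0070), the sSAN over LA (0.80 ± 0.14, adjusted p = 0.0060) and the LV (0.91 ± 0.17, adjusted p = 5.7e-04). Within ages the sSAN over RA value was 1.61 in the 59-day and 1.03 in the 70-day rats, and the iSAN over RA value was 1.32 in the 59-day and 0.60 in the 70-day rats. Set against the pan-endothelial sum, which does not hold it, Sox17 was 0.456 to 0.733% in the RA, 0.845 to 1.11% in the LA, 1.16 to 1.96% in the nodes, and 0.950 and 1.31% in the LV. With the Adipoq covariate Sox17 was 1.22 in the sSAN over RA (adjusted p = 0.013) and 0.64 in the iSAN over RA (adjusted p = 0.17), and 0.70 in the sSAN over LA (adjusted p = 0.051). With the rat as a block Sox17 was also higher in the LA over RA (0.52, adjusted p = 0.0093), and in the LV the library-total value was 0.36 (adjusted p = 0.068).

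Dll4, the Notch ligand of arteries and sprouting capillaries, was at 19.01, 15.4, 24.5 and 14.99 CPM for sSAN, 19.4, 11.4, 12.9 and 12.3 for iSAN, 17.8, 16.5, 17.8 and 13.9 for RA, 17.26, 15.8, 16.2 and 11.7 for LA and 40.3 and 37.2 for LV. Both LV values were far above every other library. The difference was 1.27 ± 0.12 (adjusted p = 2.0e-06), and no other comparison called Dll4. Notch4, a Notch receptor restricted largely to endothelium, was at 25.2, 22.8, 32.03 and 23.97 CPM for sSAN, 27.4, 26.01, 20.9 and 23.7 for iSAN, 23.4, 22.3, 22.6 and 25.2 for RA, 18.8, 22.8, 22.6 and 25.9 for LA and 45.9 and 46.7 for LV, and the LV value was 1.00 ± 0.10 (adjusted p = 2.0e-06). Notch4 lies across LOC103689965 on the opposite strand, which had a mean of 4722 counts, and whether counting used strand is not given in the sources used here. Efnb2, the arterial ephrin ligand, was at 39.99, 35.3, 56.9 and 33.8 CPM for sSAN, 52.1, 35.1, 45.2 and 47.9 for iSAN, 41.7, 43.6, 50.1 and 44.01 for RA, 39.1, 43.8, 38.7 and 39.1 for LA and 59.8 and 55.7 for LV. Both LV values lay above every atrial value, 1 sSAN value reached between them, and the other regions overlapped, and the LV over the atria gave 0.43 ± 0.08 (adjusted p = 5.2e-04). With library totals alone Efnb2 turned to -0.11.

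Notch1 and Hey1 had weaker calls. Notch1, the receptor that Dll4 activates, was higher in the LV (0.50 ± 0.11, adjusted p = 0.0015) and lower in the iSAN over RA (-0.37 ± 0.09, adjusted p = 0.019). The LV call was lost without LV replicate 3 (adjusted p = 0.057) and turned to -0.03 with library totals alone, and the iSAN call was lost without any single one of RA libraries 2 and 3 and iSAN libraries 3 and 4 (adjusted p 0.050 to 0.058). With the block Notch1 was lower in the sSAN over RA (-0.46, adjusted p = 0.021). Hey1, a repressor induced by Notch, was called in the LV (0.76 ± 0.30, adjusted p = 0.049), and the call was lost with the block (0.68, adjusted p = 0.094) and without any single one of LA libraries 1, 3 and 4, LV library 3 and RA libraries 1, 2 and 4 (adjusted p 0.062 to 0.57). Without LV replicate 3 the log2 fold change of Hey1 was 0.32.

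Of 10 other arterial genes, 7 were called higher and 1 lower in the LV, 4 higher and none lower in the sSAN over RA, and 5 higher and 2 lower in the iSAN over RA. Sema3g, a semaphorin of arterial endothelium, was 1.49 (adjusted p = 9.8e-04) in the sSAN over RA, 1.72 (adjusted p = 3.6e-04) in the iSAN over RA and 0.76 (adjusted p = 0.0021) in the LA over RA. Hey2 was 1.12 (adjusted p = 0.011) in the sSAN over RA and 1.98 (adjusted p = 2.8e-06) in the LV, and it is also a gene of ventricular muscle. Smooth muscle genes moved in the nodes as well, with 7 of 10 called higher and 1 lower in the sSAN over RA (median 2.30) and 6 higher and none lower in the iSAN over RA (median 1.75). The part of the vessel wall in the Sox17 difference was not tested.

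In CPM, Thbd and Klf4 were higher in both nodes and in the LV than in the atria. Thbd (ENSRNOG00000004687, chromosome 3, 142748674 to 142752325 in the authors' build), which turns thrombin into an anticoagulant, was at 86.7, 107, 85.2 and 79.4 CPM for sSAN, 87.8, 95.3, 103 and 86.3 for iSAN, 49.9, 60.6, 47.8 and 48.2 for RA, 58.8, 72.3, 58.9 and 58.3 for LA and 121 and 130.3 for LV. Every nodal value exceeded every RA and LA value, and the LV values were the highest of all in CPM. In FPKM the LV was not highest, with Thbd at 24.6 to 25.1 in the LV and 26.4 to 32.7 in the iSAN. Thbd rose in the sSAN over RA (0.81 ± 0.12, adjusted p = 0.0027), the iSAN over RA (0.87 ± 0.10, adjusted p = 4.4e-04), the sSAN over LA (0.54 ± 0.12, adjusted p = 0.012), the iSAN over LA (0.61 ± 0.09, adjusted p = 0.0019) and the LV (1.13 ± 0.10, adjusted p = 5.7e-07). Its sSAN over RA value was 0.83 in the 59-day and 0.77 in the 70-day rats, and its iSAN over RA value was 0.74 in the 59-day and 1.01 in the 70-day rats. Relative to the same sum, of which it is no part, Thbd was 4.59 to 5.92% in the RA, 6.47 to 7.39% in the LA, 7.29 to 12.7% in the nodes, and 9.71 and 11.3% in the LV. With the Adipoq covariate Thbd stayed called in the sSAN over RA (0.59, adjusted p = 0.023) and iSAN over RA (0.84, adjusted p = 0.0078) but not in the sSAN over LA (0.33, adjusted p = 0.15). With the block Thbd was also higher in the LA over RA (0.26, adjusted p = 0.0016).

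Klf4, a transcription factor that shear induces, was at 54.97, 65.9, 33.96 and 36.7 CPM for sSAN, 56.003, 54.9, 45.6 and 42.7 for iSAN, 32.1, 31.6, 19.8 and 22.3 for RA, 31.8, 30.4, 25.4 and 23.1 for LA and 43.5 and 41.9 for LV. The nodes lay above the RA and LA in every library, and within each of these 4 regions both 59-day rats lay above both 70-day rats. Klf4 was called in the iSAN over RA (0.93 ± 0.17, adjusted p = 0.0068), the iSAN over LA (0.87 ± 0.12, adjusted p = 0.0014), the sSAN over RA (0.87 ± 0.25, adjusted p = 0.035), the sSAN over LA (0.81 ± 0.22, adjusted p = 0.029) and the LV (0.64 ± 0.18, adjusted p = 0.012). Within ages the sSAN over RA value was 0.94 in the 59-day and 0.74 in the 70-day rats. The sSAN over RA call was lost without any single one of RA libraries 2, 3 and 4 and sSAN libraries 1 and 2 (adjusted p 0.055 to 0.093), the sSAN over LA call without any single one of LA libraries 1, 2, 3 and 4 and sSAN libraries 1 and 2 (adjusted p 0.054 to 0.081) and the LV call without any single one of LV libraries 3 and 4 (adjusted p 0.075 to 0.088). With the Adipoq covariate Klf4 was 0.18 in the sSAN over RA (adjusted p = 0.67) and 0.94 in the iSAN over RA (adjusted p = 0.098), and 0.12 in the sSAN over LA (adjusted p = 0.67). Klf4 is expressed outside endothelium as well.

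Klf2, its close relative in endothelium, was at 50.9, 57.7, 31.4 and 33.3 CPM for sSAN, 48.8, 59.03, 33.5 and 33.8 for iSAN, 37.7, 42.7, 17.1 and 27.8 for RA, 47.6, 45.1, 29.7 and 31.9 for LA and 38.9 and 45.3 for LV. Here too both 59-day rats lay above both 70-day rats in each of the 4 regions with both ages, and the 70-day LV values exceeded all 8 values of the 70-day nodes and atria. Klf2 was called in no comparison, with 0.49 ± 0.30 (adjusted p = 0.28) in the sSAN over RA and 0.26 ± 0.33 (adjusted p = 0.56) in the LV. With the rat as a block Klf2 was higher in the LV (0.67, adjusted p = 6.6e-04), the sSAN over RA (0.51, adjusted p = 0.022) and the iSAN over RA (0.54, adjusted p = 0.014). Age and any other difference between the 2 pairs of rats cannot be told apart.

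**Figure D4:**
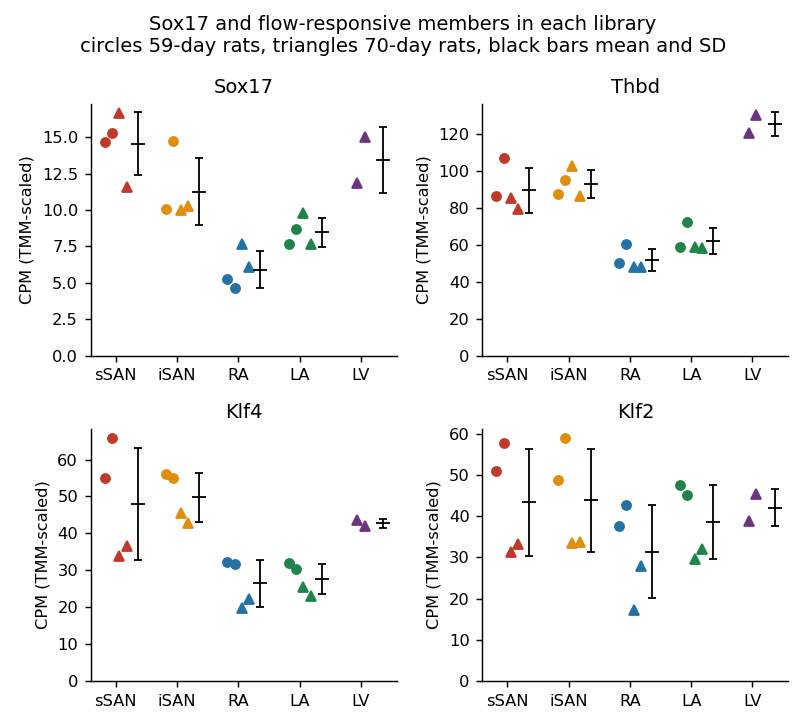
CPM of Sox17, Thbd, Klf4 and Klf2 in each library, with circles for 59-day and triangles for 70-day rats and black bars for the mean and SD (n = 4, LV n = 2). For Sox17, Thbd and Klf4 every nodal library is above every RA library, and for Klf4 and Klf2 the circles are above the triangles in each region with both ages.

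Angpt1 had the largest difference of the 32 genes between nodes and atria. Angpt1 (ENSRNOG00000005854, chromosome 7, 81342280 to 81592206 in the authors' build), the agonist of Tek that keeps vessels quiet, was at 19.9, 18.4, 26.99 and 32.5 CPM for sSAN, 30.7, 16.8, 20.98 and 29.1 for iSAN, 56.6, 73.1, 69.3 and 79.4 for RA, 113, 92.9, 117 and 124 for LA and 27.4 and 31.2 for LV. The LA was highest in every library, the RA came next, and the nodes and the LV shared one low range that did not overlap either atrium. Angpt1 was lower in the sSAN over RA (-1.49 ± 0.19, adjusted p = 0.0016), the iSAN over RA (-1.49 ± 0.20, adjusted p = 0.0018), the sSAN over LA (-2.18 ± 0.18, adjusted p = 5.0e-04), the iSAN over LA (-2.17 ± 0.19, adjusted p = 2.8e-04) and the LV (-1.61 ± 0.14, adjusted p = 1.3e-06), and higher in the LA over RA (0.67 ± 0.11, adjusted p = 0.0038). Within ages the sSAN over LA value was -2.40 in the 59-day and -2.02 in the 70-day rats, and the sSAN over RA value was -1.74 in the 59-day and -1.33 in the 70-day rats. With the Adipoq covariate Angpt1 stayed called in all 4 node comparisons, at -1.01 in the sSAN over RA (adjusted p = 0.0052) and -1.11 in the iSAN over RA (adjusted p = 0.038). Of 9 genes of working heart muscle, 4 were called lower and 1 higher in the sSAN over RA. In the iSAN over RA 6 were lower and 1 higher, with Nppa at -1.11 (adjusted p = 0.0044). In the LV over the atria 4 were higher and 2 lower. The part of muscle in the Angpt1 difference was not tested.

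Angpt2, which endothelium releases and which can block Angpt1, was at 12.8, 13.5, 22.05 and 19.6 CPM for sSAN, 10.9, 12.5, 17.6 and 16.5 for iSAN, 15.4, 20.7, 18.9 and 20.6 for RA, 8.52, 7.76, 9.48 and 8.88 for LA and 8.48 and 8.30 for LV. The LA and LV lay below every other library. Angpt2 was lower in the LA over RA (-1.14 ± 0.11, adjusted p = 7.6e-05), higher in the sSAN over LA (0.98 ± 0.18, adjusted p = 0.0070) and in the iSAN over LA (0.76 ± 0.16, adjusted p = 0.0092), and lower in the LV (-0.63 ± 0.14, adjusted p = 0.0017), where it overlapped the LA. With the block Angpt2 was also lower in the iSAN over RA (-0.39, adjusted p = 0.049). Angpt2 lies inside Mcph1 on the opposite strand, which had a mean of 54.9 counts. The ratio of Angpt1 to Angpt2 CPM was 11.96 to 13.99 in the LA, 3.52 to 3.85 in the RA, 3.23 and 3.76 in the LV, 1.22 to 1.66 for sSAN and 1.19 to 2.83 for iSAN. The ratio is a description of libraries and was not tested.

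Vegfa and Vegfb were higher in the LV and not called in either node. Vegfa, the main driver of capillary growth, was at 167, 201, 145 and 149 CPM for sSAN, 137, 173, 137 and 155 for iSAN, 164, 152, 165 and 176 for RA, 127, 136, 133 and 146 for LA and 323 and 380.2 for LV. No node separated from the RA, and both LV values were above all others. Vegfa was higher in the LV (1.22 ± 0.07, adjusted p = 2.3e-08) and lower in the LA over RA (-0.29 ± 0.06, adjusted p = 0.014). Vegfb, which binds Flt1, was at 132, 121, 146 and 158 CPM for sSAN, 130.2, 129.8, 107 and 141 for iSAN, 142, 134, 134 and 154 for RA, 146, 145, 139.7 and 163 for LA and 218 and 311 for LV. The 2 LV values were the highest (0.85 ± 0.10, adjusted p = 1.9e-05) though well apart from each other, and no other comparison called Vegfb.

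Vegfd, a ligand of lymphatic growth, was at 11.4, 5.71, 15.3 and 12.7 CPM for sSAN, 13.8, 8.93, 12.7 and 12.7 for iSAN, 11.96, 12.8, 17.01 and 13.8 for RA, 5.04, 4.004, 5.78 and 7.94 for LA and 14.8 and 9.94 for LV. Every LA value lay below every RA and iSAN value, and 1 sSAN value fell within the LA range. Vegfd was lower in the LA over RA (-1.30 ± 0.19, adjusted p = 0.0015), and higher in the iSAN over LA (1.11 ± 0.21, adjusted p = 0.0064) and the sSAN over LA (1.01 ± 0.30, adjusted p = 0.044). The sSAN call was lost without any single one of LA libraries 1, 2 and 3 and sSAN libraries 1, 3 and 4 (adjusted p 0.082 to 0.12). Vegfc, the other lymphatic ligand, lay between 4.11 and 10.3 CPM in all libraries and was called in the LV (0.73 (adjusted p = 0.0020)), the iSAN over RA (0.42 (adjusted p = 0.035)) and the iSAN over LA (0.54 (adjusted p = 0.027)). These calls were lost without LV replicate 3 (adjusted p = 0.081) in the LV, any single one of RA libraries 1, 3 and 4 and iSAN libraries 3 and 4 (adjusted p 0.076 to 0.090) in the iSAN over RA and any single one of LA libraries 3 and 4 and iSAN libraries 3 and 4 (adjusted p 0.061 to 0.074) in the iSAN over LA, and the iSAN over RA call also with the block (adjusted p = 0.058).

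Apln, the peptide that activates Aplnr, was at 10.5, 14.9, 15.9 and 8.69 CPM for sSAN, 9.13, 13.5, 11.8 and 10.6 for iSAN, 12.005, 19.3, 17.2 and 11.7 for RA, 10.5, 15.9, 20.1 and 9.30 for LA and 41.2 and 43.04 for LV. Both LV values were far above every other library. Apln had the largest increase of the 32 genes in the LV (1.52 ± 0.27, adjusted p = 0.0013), and its receptor Aplnr the next (1.46). With the block Apln was lower in the iSAN over RA (-0.38, adjusted p = 0.037). Of 18 other angiogenic factors and receptors, 6 were higher and 7 lower in the LV, and 6 higher and 1 lower in each node over RA. Cxcl12, a chemokine that guides endothelial cells, was 1.54 (adjusted p = 0.0015) in the sSAN over RA, 1.04 (adjusted p = 9.3e-04) in the iSAN over RA and 1.86 (adjusted p = 1.1e-08) in the LV. The VEGF co-receptor Nrp1 was 0.80 (adjusted p = 2.1e-07) in the LV, and the guidance factor Sema3a, which competes with VEGF for Nrp1, was -2.12 (adjusted p = 3.2e-07) there.

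**Figure D5:**
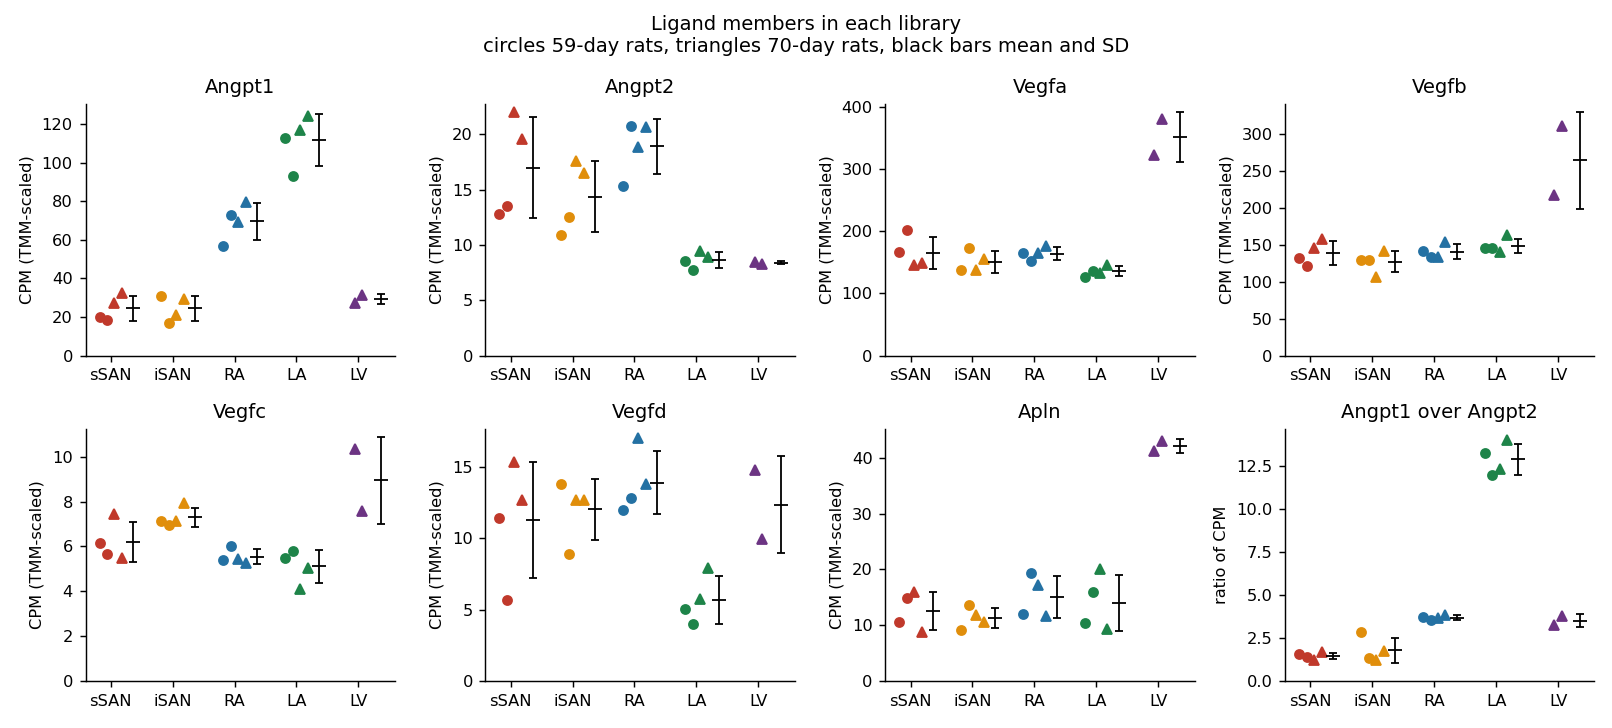
CPM of the 7 ligand genes in each library and the ratio of Angpt1 to Angpt2 CPM, with circles for 59-day and triangles for 70-day rats and black bars for the mean and SD (n = 4, LV n = 2). Angpt1 is highest in the LA and low in both nodes and the LV, and the ratio is 11.96 to 13.99 in the LA against 1.19 to 3.85 elsewhere.

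The LA and RA differed in ligands and in endothelial genes. Of the 7 genes called in the LA over RA, 4 were ligands (Angpt1 higher, Angpt2, Vegfa and Vegfd lower) and 3 were endothelial (Tie1 higher, Kdr and Eng lower). With the rat as a block, the count was 13, with 5 higher and 8 lower, against 17.9% of all genes. The added genes were Aplnr, Emcn, Ephb4, Nos3, Sox17 and Thbd, whose values are given above. In a fit over all 5 regions the count was 3, none of them higher, against 3.58% of all genes.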

How the data were processed

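RNA-seq libraries of 18 rat heart pieces were analysed. The authors filtered paired-end reads, aligned them with HISAT2 to a Rattus norvegicus reference and deposited gene counts made with HTSeq v0.6.1 in one table, which also holds FPKM values per library (deposited by the authors, scaled to gene length and library total). Versions follow the submitters' processing notes, and whether counting used strand is not given in the sources used here. Another 72 normalized per-sample columns, 5 mean FPKM columns of regions and 40 columns of the authors' own comparisons (fold changes and p-values) were not used. Of the FPKM values above 20 counts, 71.2% lay within 2% of count over length.

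Counts were tested with edgeR 4.0.16 in R 4.3.3 (filterByExpr with a minimum count of 10, TMM factors, robust dispersions, glmQLFit and glmQLFTest), with only the compared regions in each of 7 fits and p-values adjusted over all genes tested. Standard errors are the log2 fold change over the root of F. The filter, DESeq2 1.42.0, relative log expression factors, all regions in one fit, each age alone, a pan-endothelial scaling, Adipoq as a covariate, the rat as a block and leaving out each library were alternatives. The tests were tried on simulated data. Library totals alone, unlogged Adipoq, leaving out rat 2 and the sinoatrial list were added after seeing the data. Library totals of 17334954 to 24252103 set the precision. Except with the rat as a block, p-values measure the spread among libraries within regions. Those libraries were treated as independent, although same-numbered ones were taken to share a rat.

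The members and gene lists were chosen with earlier results of these data known. Library values were given for Cdh5 and, in each role group, up to 4 genes with the smallest adjusted p over the 7 comparisons, and of each other list up to 3 such genes could be named. Of 137 genes on other lists, 131 were found. Same-numbered libraries were taken as pairs because their titles share an ending and the authors used 4 hearts. Over 15248 genes the deviations of same-numbered libraries from their region means correlated at 0.210 to 0.245 between LA and RA, 0.120 to 0.216 between iSAN and RA, 0.117 to 0.166 between sSAN and RA, 0.087 to 0.225 between iSAN and LA, 0.096 to 0.195 between sSAN and LA, 0.056 to 0.151 between LV and the atria, and -0.016 to 0.449 between sSAN and iSAN.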

Additional observations from a re-analysis of the deposited data

Results flagged for a closer look

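In 6 of 128 groups of 4 libraries, 1 library lay far from the other 3, where chance gives about 1 in 20 groups. Efnb2 was at 43.8 CPM in the LA of rat 2, with the others between 38.7 and 39.1. Flt1 was at 88.1 CPM in the iSAN of rat 1, with the others between 74.7 and 76.1. Sox17 was at 14.7 CPM in the iSAN of rat 2, with the others between 10.02 and 10.3. Thbd was at 60.6 CPM in the RA of rat 2, with the others between 47.8 and 49.9, and at 72.3 CPM in the LA of rat 2, with the others between 58.3 and 58.9. Tie1 was at 99.2 CPM in the RA of rat 3, with the others between 93.7 and 93.9.

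The log2 fold change of Vwf in the sSAN over LA differed between the ages by 0.90 (70-day minus 59-day rats, edgeR interaction, adjusted p = 0.029). It was the one of 192 interactions of these genes with age that passed the adjustment, and 18 had an unadjusted p under 0.05. Over all genes, the interaction was called for 273 of 14112 in the sSAN over LA, 304 of 14038 in the sSAN over RA and 3 of 13904 in the LA over RA. It was called for 0 genes in the iSAN over RA, iSAN over LA and sSAN over iSAN. The share of all genes with an unadjusted p under 0.05 was not counted. Both 70-day sSAN values lay above both 70-day LA values, and both 59-day sSAN values lay below both 59-day LA values.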

How the results depend on the processing

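The 68 gene calls kept their direction and threshold with DESeq2 in 68 cases, with relative log expression factors in 67, without the filter in 64 and with all regions in one fit in 56. With the replicate block, 65 held (Emcn in the sSAN over RA, Vegfc in the iSAN over RA and Hey1 in the LV were lost). The paired count was 13 in the LA over RA (17.9% of all genes called), 12 in the iSAN over RA (19.8%), 9 in the sSAN over RA (22.2%) and 28 in the LV (49.5%). It was 9 in the sSAN over LA (21.3%), 10 in the iSAN over LA (19.8%) and 0 in the sSAN over iSAN (0.00699%). The LA over RA count was 3 with all regions in one fit (3.58% of all genes) and 11 when scaled to the pan-endothelial sum (12.6%). The iSAN over LA count was 6 with all regions in one fit (16.9%) and 0 in the 59-day rats (0.0908%). For the iSAN over RA the count in the 59-day rats was also 0 (0.219%). The sSAN over RA count was 11 in the 59-day rats (22.5%) and 4 without rat 2 (12.4%). With log2 Adipoq as a covariate the count was 0 in each of the 4 node over atrium comparisons (0 to 0.0142% of all genes). Angpt1, Eng, Klf4 and Thbd in the sSAN over RA then turned to 0.46, 0.49, -2.42 and -0.25 and Klf4 in the sSAN over LA to -0.36. That covariate correlated with region at 0.93 to 0.98 and widened standard errors 2.79 to 4.82 times, so it could not separate them. Unlogged, it gave 4 calls in the sSAN over RA, iSAN over RA and sSAN over LA and 5 in the iSAN over LA. The shares of all genes called were 12%, 4.04%, 11.6% and 5.27%, in that order, against 22.2%, 16.6%, 20.2% and 17.1% without it. The unlogged covariate correlated with region at 0.73 to 0.75, with standard errors 1.33 to 1.42 times as wide. With library totals alone Efnb2, Nos3 and Notch1 in the LV turned to -0.11, -0.14 and -0.035. Leaving out 1 library gave 4 to 10 calls in the sSAN over RA (12.8 to 24.4% of all genes), 6 to 12 in the iSAN over RA (10.1 to 21.1%) and 6 to 9 in the sSAN over LA (11.1 to 21.8%). It gave 5 to 9 in the iSAN over LA (11.3 to 20.6%), 6 to 9 in the LA over RA (6.05 to 7.22%) and 0 in the sSAN over iSAN (0 to 0.0277%). Without 1 atrial library the LV gave 26 to 28 (47.3 to 49.3%). Where the LV kept 1 library, that library was assumed to vary like the atria. Robo4 had too few counts to pass the filter, and whether the 0 of Cldn5 comes from the counting of overlapping genes was not tested. The causes of these shifts were not tested.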

Other observations

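Other cell types of the vessel wall and tissue are given as values. Of 9 pericyte genes, 8 were called higher in the LV (median log2 fold change 1.08), 5 higher and 1 lower in the sSAN over RA and 3 higher and 1 lower in the iSAN over RA, and Cox4i2, a subunit found in pericytes, was 1.81 (adjusted p = 7.8e-07) in the LV. Smooth muscle genes were called higher in the LV in 6 of 10 cases, and Tagln was 1.81 (adjusted p = 2.9e-08). Of 7 lymphatic endothelial genes, the sSAN over RA called 2 higher and 2 lower, and the iSAN over RA 2 higher and none lower. The transcription factor Prox1 was -0.94 (adjusted p = 0.0056) and Reln -0.55 (adjusted p = 0.035) in the sSAN over RA, and Mmrn1 was 6.36 (adjusted p = 2.9e-05) in the sSAN over RA, 6.68 (adjusted p = 1.9e-05) in the iSAN over RA and 5.47 (adjusted p = 4.2e-04) in the LA over RA, with 0.047 to 0.29 CPM in the RA. All 7 fibroblast genes were higher in the iSAN over RA and 4 in the sSAN over RA, where Pi16 was 3.16 (adjusted p = 1.3e-04) and 2.90 (adjusted p = 7.2e-05). Macrophage genes were higher in the iSAN over RA in 6 of 8 cases and over the LA in 8 of 8, and lower in the LV in 8 of 8, where C1qa was -1.27 (adjusted p = 4.7e-05). Of the red cell genes tested, 4 of 4 were higher in each node over RA and in the LV 3 of 5 were lower and 1, Slc4a1, was higher at 5.45 (adjusted p = 3.0e-04). Fat cell genes were higher in 10 of 10 cases in the sSAN over RA and in 9 of 10 in the iSAN over RA.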
